A study of Arabidopsis thaliana with 12 samples.

Results

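The AP2-EREBP family, a large group of plant transcription factors defined by the AP2 DNA-binding domain, was followed in roots of Arabidopsis thaliana. Its members here were all loci that the deposited tables annotate as AP2-EREBP, with 1 locus left out, and they numbered 35 of the 2424 different genes listed. Each deposited table set 1 transgenic line against Col and held only genes that the authors called changed, at least 2-fold by their log2 fold change and with an adjusted p (Q) of at most 0.000999. The 35 genes made 39 listings, 13 in the LBD29-OE table, 15 in the MYB2-OE table and 11 in the MYB2-SRDX table. DREB2C stood in all 3 tables, TINY in those of MYB2-OE and MYB2-SRDX, and AT5G07580 in those of LBD29-OE and MYB2-OE. The other 32 genes stood in 1 table each. A family member outside a table has no library values for that line. Of 27444 protein-coding genes in the TAIR10.1 annotation, 2.92% were listed for LBD29-OE (1.21% higher and 1.70% lower), 4.59% for MYB2-OE (2.38% higher and 2.204% lower) and 3.80% for MYB2-SRDX (2.01% higher and 1.79% lower), and which of these genes the authors tested is not stated.

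RNA was sequenced from roots of 8-day-old seedlings raised in darkness on MS medium, 3 libraries for each of 4 genotypes. LBD29-OE carried Pro35S:LBD29-6Gly and so overexpressed LBD29, a LATERAL ORGAN BOUNDARIES DOMAIN factor of lateral root formation. MYB2-OE carried Pro35S:MYB2 and overexpressed MYB2, a MYB factor known from drought and abscisic acid responses. MYB2-SRDX carried Pro35S:MYB2-SRDX, MYB2 fused to a plant repression domain and labelled dominant negative. Col was the wild type without a transgene. The 35S promoter is known to be active in most plant cell types, and which root cells expressed a transgene cannot be read from bulk tissue. The labels state neither whether a line was 1 transformant nor whether its 3 samples were grown apart. The p-values below therefore cover only the spread among the samples at hand, which can be technical.

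AP2-EREBP proteins fall into the DREB factors (groups A1 to A6), which bind the dehydration-responsive element in promoters of cold and drought genes, the ERF factors (groups B1 to B6), many of which bind the GCC box and act downstream of ethylene and jasmonate, the AP2 group with a repeated AP2 domain, which acts in meristems and flowering, and the RAV group, which adds a B3 domain. In ethylene signalling, receptors control EIN2 and through it EIN3, the EBF proteins mark EIN3 for degradation, and EIN3 switches on ERF genes. In roots the family is known from ethylene, wounding, low oxygen, drought and cold responses. In the annotation carried by the deposited tables, 28 of the 35 members had the term response to ethylene (2.64% of all 2424 listed genes). Defense response was given to 8 members (8.17% of all) and response to chitin to 8 (1.61%). Response to jasmonic acid was given to 6 (1.86%), to water deprivation to 5 (2.56%), to heat to 5 (1.49%) and to cold to 4 (2.72%). Ethylene terms are commonly given to ERF genes by family, so these counts describe the annotation and not the response of these roots.

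Levels are given as FPKM, fragments scaled to transcript length and to the mapped total of the library, as deposited. Between 3 and 3 libraries the two-sided exact permutation test cannot go below p = 0.1, and the 31 listings whose libraries did not overlap all had that value. The adjusted p given beside some genes comes from limma on log2(FPKM + 1) with Benjamini-Hochberg adjustment over the genes of that table, which the authors had already selected, so a low value is common there. In bulk roots, fewer cells of a type and less RNA per cell cannot be told apart.

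The transgenes were high in every library of their lines, with LBD29 at 477 to 603 FPKM in LBD29-OE, where Col had at most 3.08 FPKM, and MYB2 at 375 to 636 FPKM in MYB2-OE and at 445 to 538 FPKM in MYB2-SRDX, where Col had at most 1.01 FPKM. Single libraries stood apart. For MYB2-SRDX, it was the library ending in 1 by its column name, in which 20.8% of the listed genes lay more than 1 log2 unit from the line's median (at most 0.383% in its other libraries). The summed level of the 3 listed seed markers of 3 was 3.98 FPKM there and 0 in the others, against at most 0.05 FPKM in Col. The 2 listed green-tissue markers of 7, 1 called higher and 1 lower, summed to 10.3 FPKM there. They summed to 0.57 and 0.73 FPKM in the other MYB2-SRDX libraries and to 5.16 to 6.80 FPKM in Col. MYB2-OE replicate 2 (7.08% of genes) held LBD29 at 109 FPKM, against at most 1.93 FPKM in its other libraries and 2.55 to 3.08 FPKM in Col. In LBD29-OE replicate 2 (5.11% of genes) the summed level of the 5 listed green-tissue markers of 7 was 213 FPKM, against 11.4 and 13.5 FPKM in its other libraries and 98.4 to 129 FPKM in Col. Of these 5 markers, 3 were called higher and 2 lower in LBD29-OE, so the sum does not hold for each of them. None of 5 root markers was listed in any table, so the tissue could not be checked with them.

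In LBD29-OE, 12 of the 13 listed AP2-EREBP genes were lower than in Col and 1 was higher, where 58.2% of all genes listed for this line were lower and 41.8% higher. Of the listed genes with any transcription factor family, 45.8% were lower. Among families with at least 6 listed genes in this line, 12.5% of the MYB, 26.7% of the bHLH, 50% of the MADS, 66.7% of the WRKY and 75% of the NAC genes were lower. The median log2 fold change in the authors' deposited table was -1.22 over the 13 members and -1.09 over all 802 listed genes. The libraries of LBD29-OE and Col did not overlap for 11 of the 13 members (85.2% of all listed genes), and 11 passed limma, all 11 of them lower (of all listed genes 79.9% passed, 30.4% higher and 49.5% lower). A 2-fold change remained without each library in turn for 7 members (54.5% of all listed genes). Among the 3 Col libraries, replicate 3 had the highest value for 11 of the 12 lower members, where it did so for 59.5% of all lower genes of this table.

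The list used for ERF group B3, whose members answer to ethylene, jasmonate and pathogens, held 6 of the 13 genes out of its 17, 5 of them lower. Of all protein-coding genes 2.92% were listed for this line and 1.70% were lower. The group lists do not hold every family member, so this count is for the list only. ERF1A, an activator that binds the GCC box, had 16.3, 21.5 and 16.4 FPKM in LBD29-OE, against 35.2, 38.1 and 39.7 FPKM in Col. Every LBD29-OE library lay below every Col library, with a log2 fold change of -1.06 in the authors' deposited table (adjusted p = 0.00135, limma). DEWAX, a repressor of cuticular wax genes, had 29.4, 28.2 and 17.1 FPKM in LBD29-OE and 39.7, 53.9 and 74.5 FPKM in Col. The groups did not overlap, but both spread widely and the nearest libraries were 29.4 and 39.7 FPKM (adjusted p = 0.0136, limma). AT5G07580, a group B3 gene with no symbol in the files, had 12.03, 16.4 and 20.1 FPKM in LBD29-OE, against 34.7, 40.5 and 47.2 FPKM in Col. All 3 Col libraries were higher (adjusted p = 0.00231, limma).

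At lower levels, ORA59, which joins ethylene and jasmonate signals in defence against fungi, averaged 0.787 ± 0.300 FPKM in LBD29-OE and 3.21 ± 0.523 FPKM in Col (SD, n = 3 each). Its log2 fold change of -2.03 in the authors' deposited table was among the larger falls of the family in this line (adjusted p = 0.00136, limma). ERF2, a GCC-box activator like ERF1A, lay under 1 FPKM in every LBD29-OE library and fell as well, with a log2 fold change of -1.63 in the authors' deposited table. The single higher member was ERF105, known from cold responses, with 0, 1.95 and 0 FPKM in LBD29-OE, against 0 FPKM listed in all 3 Col libraries. Its call rested on LBD29-OE replicate 2, and in the annotation all 965 bases of its only exon overlap a gene on the opposite strand, AT5G51180. Strandedness of the libraries is not given in the sources used here, so reads of that gene and of ERF105 cannot be told apart.

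RAP2.6, an ERF of group B4 known from abscisic acid and stress responses, had 14.8, 13.2 and 11.0 FPKM in LBD29-OE, against 25.8, 27.0 and 33.1 FPKM in Col. Each Col library exceeded each LBD29-OE library (adjusted p = 0.00156, limma). HRE1, a group B2 factor that is induced under low oxygen and helps roots withstand it, had 6.45, 6.02 and 7.30 FPKM in LBD29-OE and 10.6, 12.9 and 17.3 FPKM in Col. The LBD29-OE libraries lay close together below a wider Col range (adjusted p = 0.00523, limma).

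In the AP2 group, SMZ and TOE3, repressors of flowering of the set silenced by a microRNA, were both lower. SMZ had 8.50, 9.35 and 8.05 FPKM in LBD29-OE, against 17.7, 17.6 and 22.0 FPKM in Col. The 3 LBD29-OE libraries lay close together below Col (adjusted p = 0.000939, limma). In the annotation an opposite-strand gene overlaps 328 of the 1072 exon bases of SMZ, and reads of the 2 genes cannot be told apart there. TOE3 averaged 0.500 ± 0.0889 FPKM in LBD29-OE and 1.02 ± 0.307 FPKM in Col (SD, n = 3 each). Among DREB factors, RAP2.9 of group A5 averaged 0.437 ± 0.0945 FPKM in LBD29-OE and 2.35 ± 0.527 FPKM in Col (SD, n = 3 each), a log2 fold change of -2.43 in the authors' deposited table (adjusted p = 0.000903, limma). The remaining listed genes were DREB2C, described with the shared genes, and AT2G22200, under 1 FPKM in every library, whose groups overlapped (adjusted p = 0.0757, limma). Without single libraries, TOE3 was under 2-fold in 5 of 6 cases, AT2G22200 in 4, HRE1 without Col replicate 3 or LBD29-OE replicate 2, DEWAX without Col replicate 3 or LBD29-OE replicate 3, and ERF1A without LBD29-OE replicate 1 or 3, with values nearest 0 of -0.67, -0.75, -0.83, -0.91 and -0.99 for the log2 fold change of mean FPKM (with a pseudocount of 0.1, as in all such values below). Without LBD29-OE replicate 2, 0 members were at least 2-fold higher and 9 at least 2-fold lower.

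**Figure D1:**
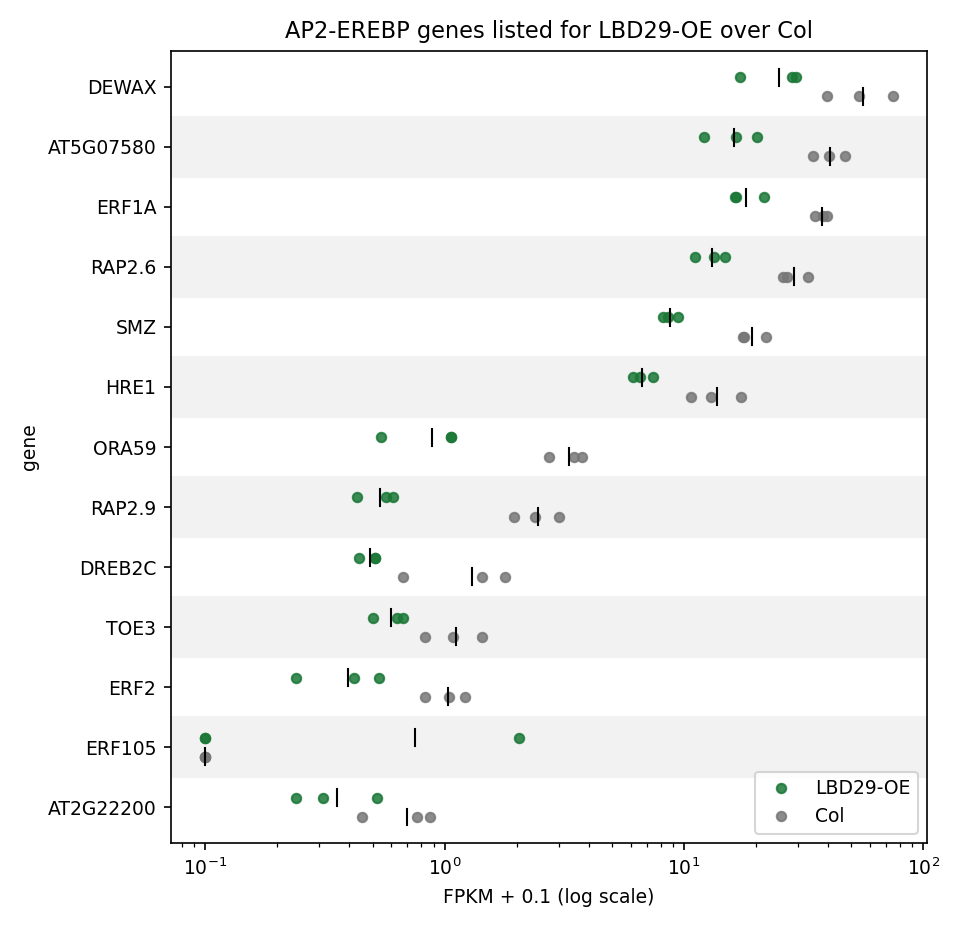
Levels of the 13 AP2-EREBP genes listed for LBD29-OE, 1 gene per row. Each point is 1 library on a log axis of FPKM + 0.1, LBD29-OE above and Col below within a row, and the bar marks the group mean; apart from ERF105, every gene has its LBD29-OE mean left of its Col mean.

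The MYB2 tables repeat the authors' LBD29-OE values for their own genes, which gave LBD29-OE log2 fold changes for 21 of the 22 members not listed for LBD29-OE. Of these, 17 were below 0 and 4 above, and 13 had a Q under 0.05, 10 below 0 and 3 above, in the authors' deposited table. All lay between -0.81 (TINY) and 0.96 (CBF2) in the authors' deposited table, under the 2-fold limit. RAP2.3 and AT4G18450 were the other genes above 0 with a Q under 0.05, at 0.90 and 0.96 in the authors' deposited table. The same shares were not computed over all genes of the MYB2 tables. These counts therefore describe the members and cannot show whether the family differs from other genes.

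In MYB2-OE, 7 of the 15 listed AP2-EREBP genes were higher than in Col and 8 lower, where 52.4% of all listed genes were higher and 47.6% lower. The median log2 fold change in the authors' deposited table was -1.10 over the members and 1.03 over all 1271 listed genes. Since every listed gene lay beyond 1 or -1 on this scale, the sign of such a median follows the direction that holds more genes, and the counts of 7 and 8 lie near the shares of all listed genes. Of listed genes with any transcription factor family, 34.1% were lower. Libraries did not overlap for 14 of the 15 members (91.7% of all listed genes), and 14 passed limma, 7 higher and 7 lower (86.7%, 45.2% higher and 41.5% lower). A 2-fold change remained without each library in turn for 10 members (64% of all listed genes). Col replicate 3 was the highest of the Col values for 5 of the 8 lower members (45.3% of all lower genes). The counts of 7 and 8 were also those of 2-fold changes without MYB2-OE replicate 2, the library with LBD29.

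Of the 9 genes in the list used for DREB group A4, 4 were listed for MYB2-OE and all 4 were lower. Of all protein-coding genes 4.59% were listed for this line, and 47.6% of the listed genes were lower. The group lists do not hold every family member. AT1G28160, higher in MYB2-OE, and AT5G52020, lower in MYB2-OE, stood in none of them. Counts out of a list therefore hold for that list and not for the whole group. TINY, a DREB factor that curbs growth when overexpressed and acts in stress responses, had 21.2, 28.9 and 25.8 FPKM in MYB2-OE, against 59.4, 59.4 and 71.0 FPKM in Col. The highest MYB2-OE library was under every Col library (adjusted p = 0.000695, limma). AT2G44940 had 14.9, 21.1 and 18.1 FPKM in MYB2-OE, against 48.9, 44.2 and 50.1 FPKM in Col. Here too the groups lay far apart relative to their spread (adjusted p = 0.000574, limma). AT4G16750 had 3.94, 4.11 and 3.13 FPKM in MYB2-OE and 7.59, 7.11 and 9.23 FPKM in Col. The groups did not overlap (adjusted p = 0.00171, limma). TINY2, the closest relative of TINY, had 0.07, 0.37 and 0 FPKM in MYB2-OE, against 0.98, 1.08 and 1.04 FPKM in Col (adjusted p = 0.0024, limma). TINY and TINY2 share 73.6% of 534 aligned exon bases in the TAIR10.1 annotation.

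ANT, an AP2-group factor that sustains cell proliferation in growing organs, had 1.42, 3.52 and 1.38 FPKM in MYB2-OE, against 8.37, 8.90 and 8.01 FPKM in Col. All MYB2-OE libraries were low, replicate 2 the least so, at a log2 fold change of -2.00 in the authors' deposited table (adjusted p = 0.00149, limma). AT5G52020 had 4.95, 6.86 and 5.98 FPKM in MYB2-OE and 15.5, 11.7 and 12.4 FPKM in Col. It too did not overlap between groups (adjusted p = 0.00162, limma). The other lower genes, AT5G07580 and DREB2C, are described with the shared genes.

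Among the higher genes, RAP2.6L, an ERF of group B4 known from wound healing and shoot regeneration, had 35.8, 30.1 and 41.2 FPKM in MYB2-OE, against 9.81, 11.8 and 15.3 FPKM in Col. Its lowest MYB2-OE library was above its highest Col library (adjusted p = 0.000901, limma). AT4G39780, of DREB group A6, had 29.2, 28.9 and 41.2 FPKM in MYB2-OE and 16.4, 13.8 and 14.8 FPKM in Col. Replicate 3 was the highest of its MYB2-OE libraries, and no library overlapped (adjusted p = 0.00162, limma). ERF110, another group B4 gene, had 0.92, 1.03 and 1.25 FPKM in MYB2-OE and was listed at 0 in all 3 Col libraries. ERF1B, a group B3 factor directly downstream of EIN3 that turns on defence genes, averaged 2.59 ± 0.614 FPKM in MYB2-OE and 0.517 ± 0.1002 FPKM in Col (SD, n = 3 each; adjusted p = 0.000875, limma). The remaining higher genes, AT1G28160, AT1G75490 and AT4G18450, had group means between 0.600 and 0.907 FPKM in MYB2-OE and between 0.14 and 0.36 FPKM in Col. Without MYB2-OE replicate 3, AT4G16750, AT4G18450 and AT4G39780 were under 2-fold, without Col replicate 3 AT4G16750 and DREB2C were, and without Col replicate 1 AT1G75490 was.

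**Figure D2:**
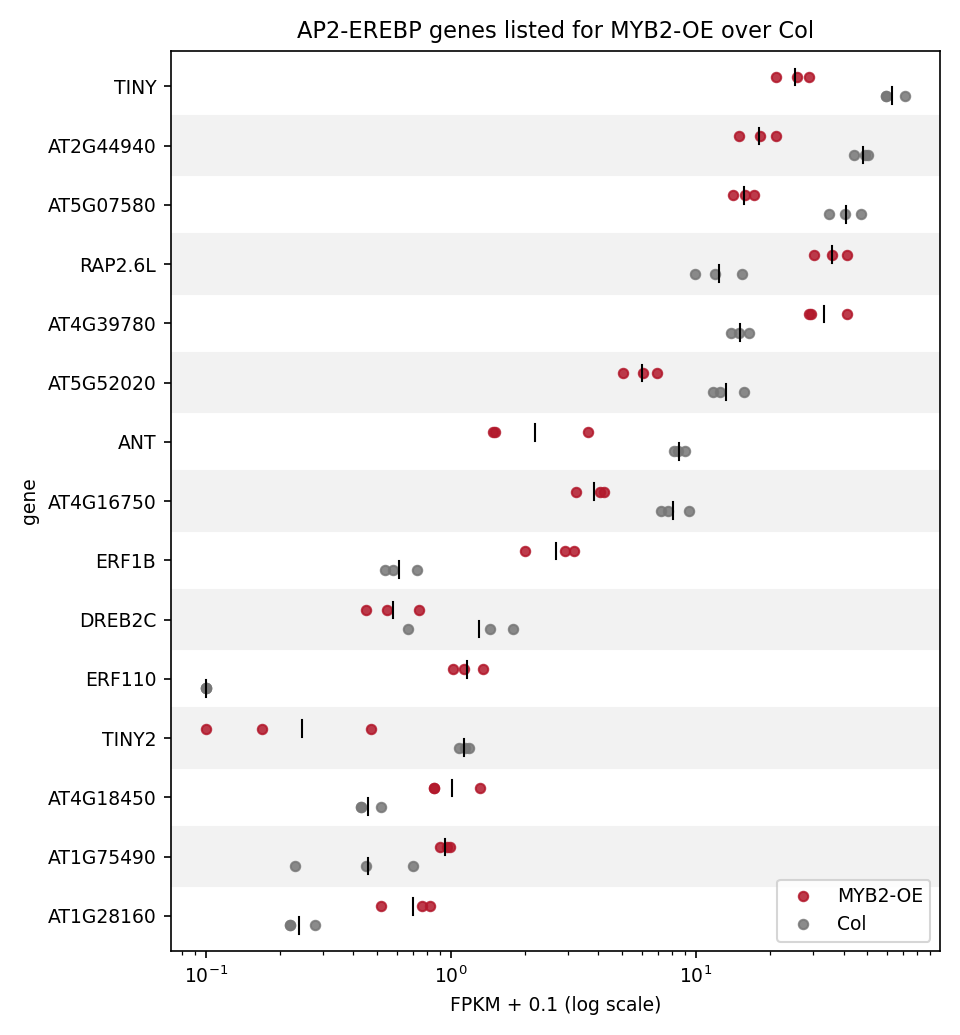
Levels of the 15 AP2-EREBP genes listed for MYB2-OE, 1 gene per row. Each point is 1 library on a log axis of FPKM + 0.1, MYB2-OE above and Col below within a row, and the bar marks the group mean; DREB2C is the only gene whose libraries overlap between MYB2-OE and Col.

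The 250 bases upstream of each annotated gene start were read for the site bound by MYB2 (TAACTG or CAACTG, either strand). It occurred in 5 of the 35 members, 4 of them among the 15 listed for MYB2-OE, in 11.8% of all genes listed for MYB2-OE and in 13.8% of 27438 protein-coding genes. Of the 4, RAP2.6L and AT4G18450 were higher in MYB2-OE, and ANT and AT5G52020 were lower. The remaining member was RRTF1, listed for MYB2-SRDX. The window of RAP2.6L (chr5:4271480-4271729, plus strand), which was higher in MYB2-OE, holds TAACTG at positions -165 to -160. It is printed 5′ to 3′ on the gene's strand from RefSeq TAIR10.1, ending at the base before the start, with the site in capitals. A match is a run of letters and was not tested for binding.
RAP2.6L: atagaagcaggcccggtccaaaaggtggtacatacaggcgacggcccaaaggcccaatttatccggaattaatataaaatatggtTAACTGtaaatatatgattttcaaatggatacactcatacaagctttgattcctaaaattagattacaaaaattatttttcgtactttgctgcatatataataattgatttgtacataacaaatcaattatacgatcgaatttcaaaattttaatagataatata

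In MYB2-SRDX, 7 of the 11 listed AP2-EREBP genes were higher than in Col and 4 lower, where 52.9% of all listed genes were higher and 47.1% lower. The median log2 fold change in the authors' deposited table was 1.12 over the members and 1.04 over all 1045 listed genes. Libraries did not overlap for 6 members (74.8% of all listed genes), and 6 passed limma, 5 higher and 1 lower (58.7%, 23.4% higher and 35.2% lower). A 2-fold change remained without each library in turn for 5 members (47.7% of all listed genes). Of listed genes with any transcription factor family, 52.8% were lower here. Col replicate 3 was the highest of the Col values for 1 of the 4 lower members (28% of all lower genes). Without the library ending in 1, 5 members were at least 2-fold higher and 4 at least 2-fold lower. DREB2C, DREB2A, ERF53, DDF1 and AT1G71520 were each under 2-fold without at least 1 other single library.

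The genes that passed included the most abundant members of the family in these tables. TINY had 140, 196 and 209 FPKM in MYB2-SRDX, against 59.4, 59.4 and 71.0 FPKM in Col. Every MYB2-SRDX library lay above every Col library, with a log2 fold change of 1.52 in the authors' deposited table (adjusted p = 0.00237, limma). RAP2.3, a group B2 factor stabilised when oxygen is low, had 108, 138 and 154 FPKM in MYB2-SRDX and 43.5, 53.4 and 64.4 FPKM in Col. The lowest MYB2-SRDX library exceeded the highest Col library (adjusted p = 0.00436, limma). RAV1, a RAV-group factor with AP2 and B3 domains that restrains growth, had 66.7, 99.3 and 78.3 FPKM in MYB2-SRDX, against 21.5, 25.6 and 28.1 FPKM in Col. Its groups did not overlap and its log2 fold change was 1.70 in the authors' deposited table (adjusted p = 0.00186, limma).

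ERF6, a group B3 factor of oxidative and osmotic stress responses, had 71.3, 27.1 and 30.1 FPKM in MYB2-SRDX, against 19.0, 16.4 and 16.2 FPKM in Col. All 3 MYB2-SRDX libraries were above Col, but the library ending in 1 was far above the others, and without it the log2 fold change of mean FPKM was 0.73 (adjusted p = 0.0446 with all libraries, limma). DREB2A, an activator of drought and heat genes, had 6.46, 17.7 and 17.4 FPKM in MYB2-SRDX and 4.65, 5.78 and 7.57 FPKM in Col. The library ending in 1 lay within the Col range and the other MYB2-SRDX libraries above it (adjusted p = 0.0793, limma). AT1G71520, in none of the group lists, was higher at 2.14 to 3.69 FPKM in MYB2-SRDX and 1.33 to 1.46 FPKM in Col.

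The lower genes were all low in Col. CBF2, a DREB of group A1 and a main activator of cold genes, averaged 0.307 ± 0.0289 FPKM in MYB2-SRDX and 1.36 ± 0.233 FPKM in Col (SD, n = 3 each), without overlap (adjusted p = 0.00294, limma). CBF2 and its neighbour DREB1A share 83.4% of 910 aligned exon bases, so reads may be split between them. DDF1, a group A1 factor linked to gibberellin breakdown under salt, was listed at 0 in all 3 MYB2-SRDX libraries and at 0.47, 0.04 and 0 FPKM in Col. ERF53 of group A6 and RRTF1, a group B4 factor of redox and jasmonate responses, stayed under 1 FPKM in all libraries and overlapped between groups (adjusted p = 0.104 and 0.0712, limma). In the annotation, the exon overlaps of RRTF1 with 2 opposite-strand genes add up to 887 bases, where a base under both genes counts for each.

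**Figure D3:**
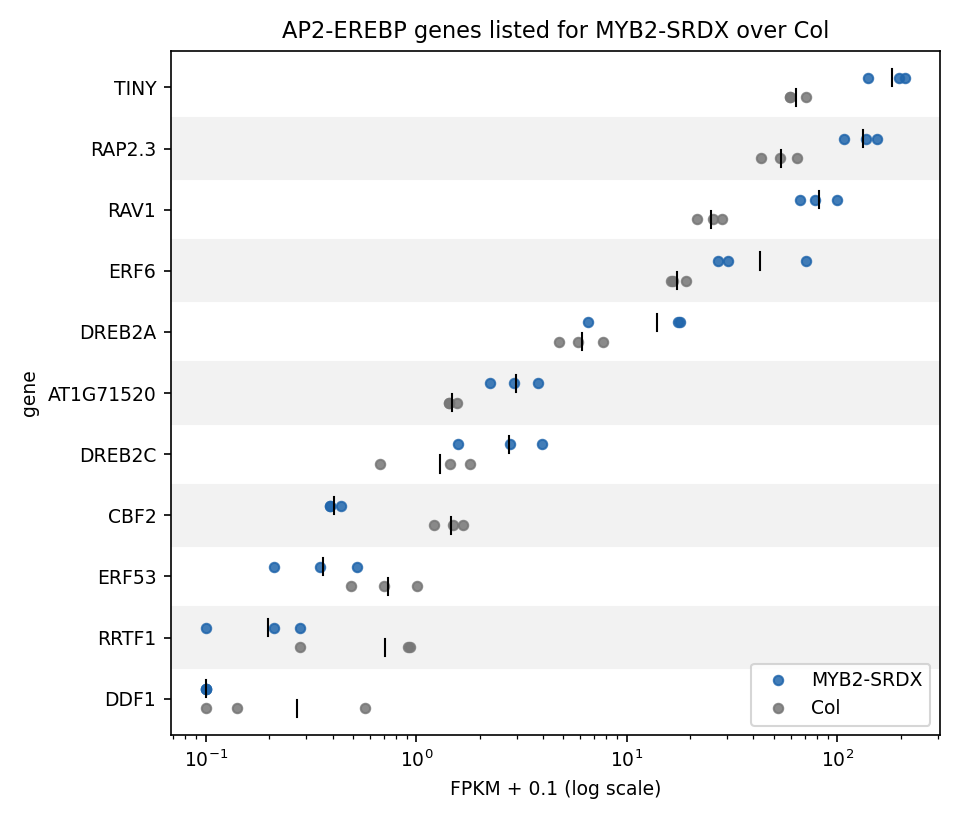
Levels of the 11 AP2-EREBP genes listed for MYB2-SRDX, 1 gene per row. Each point is 1 library on a log axis of FPKM + 0.1, MYB2-SRDX above and Col below within a row, and the bar marks the group mean; TINY, RAP2.3, RAV1, ERF6, AT1G71520 and CBF2 have libraries that do not overlap between MYB2-SRDX and Col.

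The members in more than 1 table allowed the lines to be set against each other. The tables share the Col libraries, so the lines were compared directly, by limma over the genes listed in both tables. TINY and DREB2C had already been called lower in an overexpression line and higher in MYB2-SRDX against the same Col. For them a gap between those lines was fixed by that selection, and a low adjusted p adds no separate evidence. TINY (chr5:8986542-8987898, minus strand, TAIR10.1, 1 exon) was lower in MYB2-OE than in MYB2-SRDX, with a difference of -2.78 on the log2(FPKM + 1) scale and a 95% interval of -3.23 to -2.34 (adjusted p = 3.19e-06 over 299 genes, limma). Libraries of MYB2-OE had 21.2 to 28.9 FPKM and those of MYB2-SRDX 140 to 209 FPKM, with Col between them at 59.4 to 71.0 FPKM. In LBD29-OE, where TINY was not listed, the authors' deposited table gave a log2 fold change of -0.81.

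DREB2C, a DREB of group A2 known from heat responses (chr2:16848160-16850494, minus strand, TAIR10.1), was the only member in all 3 tables. It had 0.41, 0.41 and 0.34 FPKM in LBD29-OE and 0.64, 0.35 and 0.45 FPKM in MYB2-OE. In MYB2-SRDX it had 1.48, 2.69 and 3.84 FPKM, against 0.57, 1.34 and 1.69 FPKM in Col. DREB2C and AT2G40350 share 88.5% of 548 aligned exon bases, so reads may be split between them over that stretch. The LBD29-OE libraries lay below Col, while those of MYB2-OE and of MYB2-SRDX each overlapped Col. Its log2 fold changes in the authors' deposited table were -1.58 in LBD29-OE, -1.37 in MYB2-OE and 1.12 in MYB2-SRDX, and the adjusted p values were 0.0304, 0.0502 and 0.0951 (limma). Between lines, DREB2C was lower in LBD29-OE than in MYB2-SRDX, with a difference of -1.35 log2 units (95% interval -2.01 to -0.70, adjusted p = 0.00342 over 227 genes, limma). It was also lower in MYB2-OE than in MYB2-SRDX, with a difference of -1.26 log2 units (95% interval -1.91 to -0.62, adjusted p = 0.00321, limma). MYB2-OE and LBD29-OE differed by 0.09 log2 units, with a 95% interval of -0.35 to 0.53 (adjusted p = 0.877 over 283 genes, limma). In order of mean level, LBD29-OE and MYB2-OE came lowest and did not differ beyond their spread, followed by Col and then MYB2-SRDX.

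AT5G07580 (chr5:2399726-2400349, plus strand, TAIR10.1, 1 exon) was lower in both overexpression lines. It had 17.1, 14.1 and 15.7 FPKM in MYB2-OE and 12.03, 16.4 and 20.1 FPKM in LBD29-OE, against 34.7, 40.5 and 47.2 FPKM in Col. The libraries of the 2 lines overlapped each other and neither overlapped Col. MYB2-OE minus LBD29-OE was -0.02 log2 units, with a 95% interval of -0.47 to 0.42 (adjusted p = 0.987 over 283 genes, limma).

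**Figure D4:**
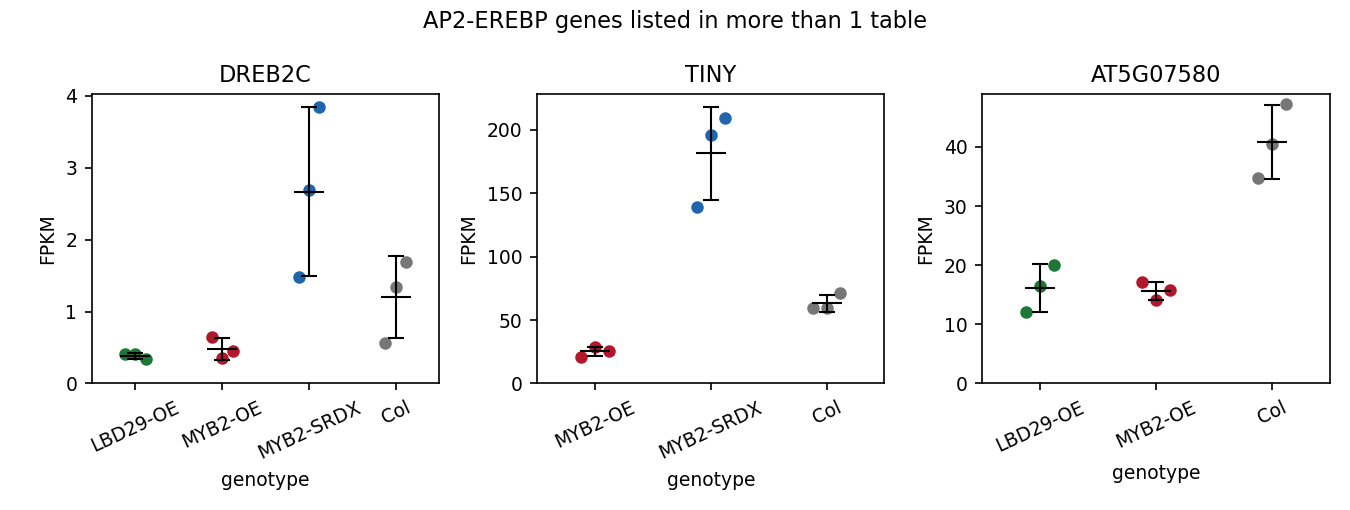
Levels of the 3 AP2-EREBP genes listed in more than 1 table, in the lines where they were listed and in Col. Points are libraries, bars the group mean with its SD, in FPKM; TINY lies below Col in MYB2-OE and above it in MYB2-SRDX, and DREB2C is highest in MYB2-SRDX.

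The genes most like DREB2C were ranked among the 115 genes in all 3 tables by Pearson's r of log2(FPKM + 1) over the 12 libraries, as a description. They were AT1G72416 (0.963), AT4G33980 (0.956), the abscisic acid receptor gene PYL6 (0.951), AT2G28210 (named ACA2, 0.950) and AT4G21870 (0.942). The 12 points share genotypes and libraries, and all 115 genes were selected as changed in every line. PYL6 averaged 6.21 FPKM in LBD29-OE, 7.01 FPKM in MYB2-OE, 50.2 FPKM in MYB2-SRDX and 21.0 FPKM in Col, which is the order of DREB2C. PYL6 lies next to DREB2C on the same strand, with 1965 bases between them.

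The window upstream of DREB2C holds 2 copies of the evening element AAATATCT, a clock-related promoter motif, at positions -55 to -48 and -46 to -39 from the start. The motif was searched in the other genes after this sequence had been seen. It occurred on either strand in 3 of the 35 members, DREB2C, CBF2 and ERF53, all of them among the 11 listed for MYB2-SRDX, in 6.24% of all genes listed for that line and in 4.79% of 27438 protein-coding genes. DREB2C was higher in MYB2-SRDX and CBF2 and ERF53 were lower. The windows are chr2:16850495-16850744 (minus strand), chr4:13016236-13016485 (minus strand) and chr2:8985709-8985958 (plus strand) of RefSeq TAIR10.1, printed 5′ to 3′ on the gene's strand. Capitals mark the evening element or its reverse complement and, in ERF53, also the core of the dehydration-responsive element, CCGAC.
DREB2C: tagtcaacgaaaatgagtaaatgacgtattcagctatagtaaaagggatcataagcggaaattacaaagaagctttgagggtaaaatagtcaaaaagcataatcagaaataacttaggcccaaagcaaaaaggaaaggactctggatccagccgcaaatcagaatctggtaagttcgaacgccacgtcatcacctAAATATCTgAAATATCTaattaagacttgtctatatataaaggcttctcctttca
CBF2: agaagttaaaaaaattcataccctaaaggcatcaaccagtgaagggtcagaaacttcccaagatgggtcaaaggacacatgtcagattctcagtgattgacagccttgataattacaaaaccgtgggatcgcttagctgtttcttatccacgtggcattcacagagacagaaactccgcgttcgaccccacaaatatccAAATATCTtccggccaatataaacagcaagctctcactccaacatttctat
ERF53: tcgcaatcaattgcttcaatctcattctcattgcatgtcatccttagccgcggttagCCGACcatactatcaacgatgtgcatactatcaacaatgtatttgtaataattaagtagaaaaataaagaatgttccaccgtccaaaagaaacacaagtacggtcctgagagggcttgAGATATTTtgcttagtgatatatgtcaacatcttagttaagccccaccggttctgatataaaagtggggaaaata

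The GCC box GCCGCC, searched on both strands, occurred upstream of ORA59 and AT1G75490 (2 of 35 members and 1.87% of all protein-coding genes). CCGAC occurred upstream of ORA59, ERF53 and RAP2.9 (3 of 35 members and 11.97% of all protein-coding genes). The motif GCGGCG, known to be bound by LBD proteins, occurred upstream of ORA59 alone among the members (1.56% of all protein-coding genes) and there it overlaps the GCC box. No match says only that these letters are not in the window.

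Genes acting before and after these factors were listed in small numbers, from 0 to 4 of a list, and counts this small are given as a description only. Of 14 ethylene synthesis genes, the oxidase gene ACO3, which makes ethylene from its precursor, was higher in LBD29-OE and in MYB2-OE, at means of 37.4 ± 7.49 and 42.9 ± 8.74 FPKM, where Col averaged 16.4 ± 0.974 FPKM (SD, n = 3 each). In MYB2-OE another oxidase gene, ACO4, was higher, at 63.4 ± 7.38 FPKM against 30.8 ± 2.97 FPKM in Col (SD, n = 3 each). The oxidase gene ACO1 was lower there, at 4.36 ± 0.297 FPKM against 9.12 ± 2.39 FPKM in Col (SD, n = 3 each). Without MYB2-OE replicate 1 both were just under 2-fold, at log2 fold changes of mean FPKM of 0.981 for ACO4 and -0.995 for ACO1. In MYB2-SRDX the precursor synthase gene ACS11 was the only one listed, with 1.79, 2.15 and 2.34 FPKM, against 0.47, 0.28 and 0.39 FPKM in Col. The counts were 1 of 14 in LBD29-OE, 3 of 14 in MYB2-OE and 1 of 14 in MYB2-SRDX, where 2.92%, 4.59% and 3.80% of all protein-coding genes were listed.

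Of 12 ethylene perception and signalling genes, 1 was listed in LBD29-OE and 0 in each MYB2 line (2.92% of all protein-coding genes in LBD29-OE, 4.59% in MYB2-OE and 3.80% in MYB2-SRDX). EBF2, which targets EIN3 for degradation, had 32.0, 30.6 and 33.6 FPKM in LBD29-OE, against 69.2, 69.98 and 93.7 FPKM in Col, without overlap and with a log2 fold change of -1.28 in the authors' deposited table. Of 7 ethylene and jasmonate target genes, 1 was listed, the defence gene PR4 in MYB2-OE (2.38% of all protein-coding genes were higher there). PR4 had 361, 250 and 462 FPKM in MYB2-OE, against 168, 172 and 156 FPKM in Col. All MYB2-OE libraries were above Col, replicate 3 the most.

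Of 12 cold and dehydration targets, 4 were listed in MYB2-SRDX (2 higher and 2 lower), 2 in MYB2-OE (both lower) and 1 in LBD29-OE (higher), where 3.80%, 4.59% and 2.92% of all protein-coding genes were listed. RD29B, a dehydration gene, averaged 0.517 ± 0.0551 FPKM in MYB2-SRDX and 2.91 ± 0.479 FPKM in LBD29-OE, against 1.29 ± 0.450 FPKM in Col (SD, n = 3 each). KIN2 averaged 60.7 ± 9.36 FPKM in MYB2-SRDX and 192 ± 17.3 FPKM in Col, a fall without overlap (SD, n = 3 each). KIN1 had 8.98, 25.1 and 5.58 FPKM in MYB2-OE, against 47.9, 57.9 and 33.2 FPKM in Col. Replicate 2, the MYB2-OE library that stood apart, was the highest of the line, and without it the log2 fold change of mean FPKM was -2.65, against -1.81 with all libraries in the authors' deposited table. KIN1 and KIN2 are known as close copies of each other. Their likeness was not measured here, and reads may be split between them. The zinc finger gene ZAT12 had 36.6, 16.0 and 16.9 FPKM in MYB2-SRDX, against 8.91, 9.30 and 13.2 FPKM in Col, and averaged 5.03 ± 0.254 FPKM in MYB2-OE (SD, n = 3), where it was lower. ZAT10 was listed as higher in MYB2-SRDX with 56.6, 6.01 and 8.86 FPKM, against 8.56, 9.26 and 11.6 FPKM in Col. In both ZAT genes the MYB2-SRDX library ending in 1 was the highest, and without it the log2 fold changes of mean FPKM were 0.65 for ZAT12 and -0.39 for ZAT10.

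Of 9 hypoxia targets, LBD41 and PCO2 were higher in LBD29-OE, HRA1 was higher in MYB2-OE and 0 were listed in MYB2-SRDX, where 1.21% of all protein-coding genes were higher in LBD29-OE, 2.38% in MYB2-OE and 2.01% in MYB2-SRDX. LBD41, a hypoxia-induced LBD gene, had 8.75, 10.3 and 14.2 FPKM in LBD29-OE, against 3.78, 4.29 and 3.98 FPKM in Col. PCO2 was low throughout, with 0.42, 0.47 and 0.83 FPKM in LBD29-OE and 0.18, 0.14 and 0.21 FPKM in Col. The hypoxia-related factor HRE1 was lower in the same LBD29-OE libraries. HRA1, a repressor in the low-oxygen response, averaged 2.36 ± 0.521 FPKM in MYB2-OE and 1.16 ± 0.281 FPKM in Col (SD, n = 3 each).

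In the TAIR10.1 annotation, 25 of the 35 members have no intron. ERF6 and ERF1A, neighbours on chromosome 4 with 5042 bases between them, were not listed together in any table, ERF1A being lower in LBD29-OE and ERF6 higher in MYB2-SRDX. Exons of 7 members overlap another gene, over 21 to 124 bases apart from ERF105, RRTF1 and SMZ.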

How the data were processed

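Root RNA of 4 genotypes, 3 samples each, was sequenced (Illumina) after random priming, per the labels' protocols, and groups came from the genotype labels and titles. Per the file headers, each of the 3 deposited tables of called genes gives FPKM for every library and for the mean of each group. The tables also hold the authors' log2 fold change, p-value and Q-value per gene, per the file headers. The build was TAIR10, per the submitters' processing notes, with aligner, counting tool and test not given in the sources used here. Column names of MYB2-SRDX match no sample title, so its libraries have no replicate number and are called by the last digit of the column name.

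Depth per library is unknown: at the best depth, 66.7 to 86.2% of 12 to 32 usable low genes came out at whole reads within 0.1 reads, so no test on reads was run and no interval that needs depth is given.

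The authors' calls were counted. Beside them stand two-sided exact permutation tests, limma 3.58.1 (R 4.3.3) on log2(FPKM + 1) over all listed genes with a threshold of 0.05, folds of mean FPKM with pseudocounts of 0, 0.1 and 1, and fits without each library. Folds with a pseudocount understate changes of low genes. The limma step was also run on simulated data with independent normal noise, in which most genes were unchanged. The deposited tables hold only genes called changed, so that run does not give the error rate of the limma calls here. The members, the gene lists and the rule for named genes (members in more than 1 table, or reaching 5 FPKM in the mean of either group, by library; others with a symbol and 1 FPKM by group mean) were chosen with earlier results of these data known. ERF105, ERF2, AT2G22200, AT1G71520, DDF1, ERF53, RRTF1 and the low MYB2-OE genes were named after their values were seen. Sequences and overlaps came from RefSeq TAIR10.1, in which all 35 loci matched, with blastn 2.17.0 for near copies. The deposited tables give no coordinates. 1 locus is not reported here.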

Additional observations from a re-analysis of the deposited data

Results flagged for a closer look

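Between lines of the same contrast against Col, 3 differences passed the limma test of the difference itself. Each gene had been selected as lower in the overexpression line and higher in MYB2-SRDX, so a difference was fixed beforehand. TINY differed by -2.78 log2 units between MYB2-OE and MYB2-SRDX, with MYB2-OE at 25.3 ± 3.89 FPKM and MYB2-SRDX at 182 ± 37.0 FPKM (SD, n = 3 each). DREB2C differed by -1.26 log2 units between MYB2-OE and MYB2-SRDX and by -1.35 log2 units between LBD29-OE and MYB2-SRDX, with means of 0.480 ± 0.147, 0.387 ± 0.0404 and 2.67 ± 1.18 FPKM in MYB2-OE, LBD29-OE and MYB2-SRDX (SD, n = 3 each). In each case all 3 libraries of the overexpression line were below all 3 of MYB2-SRDX. Over the alternatives the adjusted p (limma) ran from 1.72e-06 to 3.87e-05 for TINY, from 0.000514 to 0.0131 for DREB2C in MYB2-OE and from 0.000443 to 0.0141 for DREB2C in LBD29-OE.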

How the results depend on the processing

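The count of 1 higher member in LBD29-OE became 0 with a pseudocount of 1, at a floor of 1 FPKM and by limma with and without a replicate block. It was also 0 on requiring no overlap between libraries (chosen after seeing the data), and 0 to 1 when single libraries were left out. With no pseudocount that member, ERF105, was not counted, since a Col level of 0 gives no finite fold. The 12 lower members in LBD29-OE became 7 with a pseudocount of 1 and 8 to 11 without single libraries. In MYB2-OE the 7 higher members became 4 with a pseudocount of 1 and 4 at the 1 FPKM floor, and the 8 lower became 5 with a pseudocount of 1, with 5 to 7 higher and 6 to 8 lower without single libraries. In MYB2-SRDX the 7 higher members were 5 to 6 without single libraries, and the 4 lower became 0 with a pseudocount of 1 and 1 each at the 1 FPKM floor, by limma and without overlap, with 3 to 4 without single libraries. The pseudocount shrinks changes of genes near 1 FPKM by construction. Between lines, the AT5G07580 difference of -0.02 ran from -0.21 to 0.14 without single libraries and was above 0 in 3 of these fits (0.05, 0.0021 and 0.14), never passing the threshold. The DREB2C and TINY differences kept their direction and side of the threshold under a pseudocount of 0.1 and without each library. Of the single-member values under alternatives, 296 stayed on their side of the threshold, 52 did not and 0 reversed. The labels do not say whether equal replicate numbers pair the samples. Deviations from the group means of same-numbered libraries correlated at -0.06, 0.02 and -0.09 for LBD29-OE with Col and at 0.02, 0.01 and 0.01 for MYB2-OE with Col. For other-numbered libraries they ran from -0.07 to 0.14 in LBD29-OE and from -0.02 to -0.0023 in MYB2-OE. With 3 libraries per group, these values cannot decide whether samples were paired. With a replicate block, limma called 0 higher and 9 lower members in LBD29-OE and 6 higher and 7 lower in MYB2-OE. No paired analysis was possible for MYB2-SRDX because its columns carry no replicate numbers. Of the 39 listings, 9 had both group means under 1 FPKM, where folds are least certain.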
